A study of Rattus norvegicus with 12 samples.

Results

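The genes of the mitochondrial protein import machinery and of the SLC25 family of mitochondrial carriers were taken by name, as every gene with a symbol of the Timm, Tomm or Slc25a series and measured by a probe set annotated to that 1 symbol. This gave 63 of 14217 genes tested, 23 of the import machinery and 40 carriers. Slc25a51 was left out, because both of its probe sets list that symbol for 2 gene entries, and neither was called (log2 changes 0.17 and 0.14, in a fit over 31042 probe sets). Rat F111 fibroblasts, an established line, were compared after 16 h attached to plastic (A16) and after 16 h in suspension (NA16), both in the same serum medium at 37°C, to find transcripts that differ when adhesion is lost. RNA was measured on Affymetrix rat arrays, on which a probe set gives the brightness of a transcript. Each state had 3 arrays, biological replicates 1 and 2 and technical replicate 2, and the technical replicate was averaged with biological replicate 1, which left n = 2 per state. Values are log2 RMA intensities, changes are NA16 minus A16, SDs are over n = 2, and the values of single arrays are given in the order biological replicate 1, biological replicate 2, technical replicate 2. A gene was called when its limma adjusted p over all genes was below 0.05. Where a replicate is left out below, 1 sample remains in its state, and the p-value of that fit measures no spread within that state. Leaving out replicate 1 removes the technical array with it.

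All samples come from the same line, which is aneuploid according to the study, and many of its cells die in suspension, so the NA16 RNA is that of a population with losses. Fibroblast markers were bright, with A16 means of 14.60 for Col1a1 and 14.63 for Vim, and the summed RMA intensity of the 8 markers was 110645 to 127944 on A16 arrays and 93522 to 122791 on NA16 arrays. Of these 8, Pdgfrb (log2 change 1.40, adjusted p = 0.00108) and Thy1 (0.47, adjusted p = 0.0435) were higher in NA16 and 0 were lower (1 lower at an unadjusted limma p below 0.05). Some markers of other cell types were also bright or moved. The epithelial list rose in 2 of 5 markers (Krt8 and Epcam), while Krt18 (-0.24) and Cldn4 (-0.13) were below 0 without a call. Its sum, in which Krt8 was the brightest (A16 mean 10.12), went from between 1205 and 1388 to between 2627 and 3088. The macrophage list rose in 1 of 5 (Cd68), with sums of 342 to 376 against 521 to 569, while Ptprc (-0.14) and Csf1r (-0.09) were below 0. The endothelial list rose in 1 of 3 (Pecam1), with sums of 195 to 229 against 231 to 238, while Kdr (-0.07) and Tek (-0.31) were below 0. Over all genes 21.9% rose and 16.9% fell. In the adipocyte and muscle list Des rose and Myh1 fell, with sums of 5335 to 6213 against 6273 to 6461. No marker is listed at 0, and the part of other cell types in the values below was not tested. In a bulk sample, fewer cells that express a gene and less RNA per cell cannot be told apart. Log2 intensities correlated between arrays at 0.993 to 0.998 within A16, at 0.989 to 0.997 within NA16 and at 0.946 to 0.953 between the states.

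Nearly all mitochondrial proteins are made in the cytosol and enter the organelle as unfolded chains. They pass the outer membrane through the TOM complex, whose receptors catch the targeting signal and whose channel lets the chain through. Chains with a cleavable presequence are handed to the TIM23 complex and pulled into the matrix, while hydrophobic carriers are escorted across the intermembrane space by small TIM chaperones to the TIM22 complex, which inserts them into the inner membrane. The SLC25 carriers are the main clients of that second route, and each exchanges a metabolite, nucleotide, cofactor or ion across the inner membrane. A few members act elsewhere, such as Slc25a17 in peroxisomes and Slc25a46 at the mitochondrial outer membrane.

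Import genes were lower in suspended cells, while the carriers changed in both directions. Of the 23 import genes 14 fell (60.9%) and 0 rose, where 16.9% of all genes fell and 21.9% rose. At an unadjusted limma p below 0.05, 15 fell and 0 rose. Their log2 changes ran from -1.78 to 0.17 with a median of -0.55, and 22 of 23 were below 0, where the median of all genes was 0.01. The 40 carriers split into 12 that rose, 6 that fell and 22 that were not called, with a median of 0.12, so that 30% rose and 15% fell. The shares of the carriers thus lay near those of all genes, and the share of import genes that fell lay above it. PLIER, the second algorithm, gave 14 falls and 0 rises in the import machinery with a median of -0.56, and 4 falls and 13 rises among the carriers with a median of 0.17.

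The difference was present on every array. Taking each gene against its A16 mean, the median of the import genes was 0.01, -0.05 and 0.09 on the A16 arrays and -0.45, -0.48 and -0.52 on the NA16 arrays. The same median over the carriers was 0.01, -0.02 and 0.02 on A16 arrays and 0.18, 0.15 and 0.08 on NA16 arrays, and over all genes it stayed between -0.03 and 0.04. In 17 of the 23 import genes all 3 NA16 arrays lay below all 3 A16 arrays, and in 0 above, where 23.9% of all genes lay below and 27.8% above. Among the carriers 10 lay below and 15 above. A fall of at least 2-fold was called in 7 import genes and 1 carrier, Slc25a13, where 6.12% of all genes passed it. A rise of at least 2-fold was called in 1 carrier, Slc25a36, where 7.74% of all genes passed it.

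**Figure D1:**
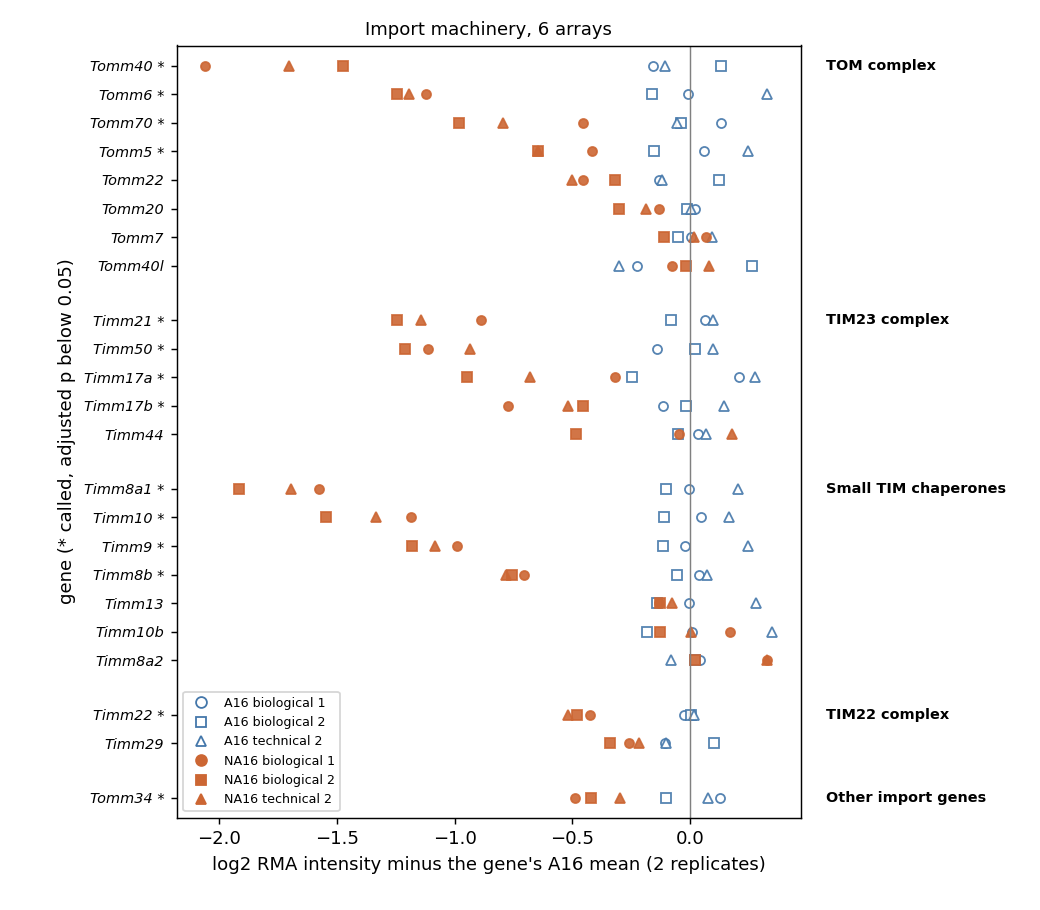
Log2 RMA intensity of each import gene on the 6 arrays, minus the gene's A16 mean (horizontal axis), with genes on the vertical axis grouped by complex, open blue symbols for A16, filled orange symbols for NA16, and asterisks for called genes. The NA16 arrays of the called genes sit to the left of the A16 arrays in each complex, reaching about 2 log2 units for Tomm40 and Timm8a1.

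Small TIM chaperones held the largest fall. These soluble proteins of the intermembrane space work as rings built of related subunits. Of the 7 measured 4 fell (57.1%), with a median of -0.75, where 16.9% of all genes fell. Timm8a1, whose human counterpart is mutated in a syndrome of deafness and dystonia, read 10.84, 10.74 and 11.05 on the A16 arrays and 9.26, 8.92 and 9.14 on the NA16 arrays. The 2 states did not overlap, and the gene was 3.43-fold lower in NA16 (log2 change -1.78, SE 0.14, adjusted p = 0.000179). Timm10, which forms the main carrier chaperone together with Timm9, read 11.01, 10.85 and 11.13 in A16 and 9.78, 9.41 and 9.63 in NA16. It was 2.64-fold lower (log2 change -1.40, SE 0.15, adjusted p = 0.000467).

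Its partner Timm9 read 10.75, 10.65 and 11.01 in A16 and 9.77, 9.58 and 9.68 in NA16, a change of -1.11 (SE 0.13, adjusted p = 0.000738), so both subunits of that ring fell. Timm8b fell by 0.75 on the log2 scale (adjusted p = 0.00207). The partner of the Timm8 proteins, Timm13, was not called, and neither were Timm10b and Timm8a2, with changes between -0.11 and 0.17. For Timm10b this depended on the probe set, since the dimmer of its 2 probe sets read 8.43, 8.63 and 8.75 in A16 and 7.87, 7.84 and 7.92 in NA16 and was called lower (log2 change -0.74, adjusted p = 0.00391 over 31042 probe sets).

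The 3 small TIMs that fell by over 2-fold, Timm8a1, Timm10 and Timm9, were also the only ones of the 21 import genes with a promoter in the table that held an E-box there, and their promoters are shown for that reason. The promoters are from RefSeq on the GRCr8 assembly, 250 bases before to 50 bases after the start site, and 55 of the 63 genes matched an entry. They are printed 5′ to 3′ on the strand of the gene, and capitals mark the E-box CACGTG, the ETS motif CCGGAAG and the NRF1 core GCATGCGC on either strand.
Timm8a1, chrX:102015395-102015694, minus strand: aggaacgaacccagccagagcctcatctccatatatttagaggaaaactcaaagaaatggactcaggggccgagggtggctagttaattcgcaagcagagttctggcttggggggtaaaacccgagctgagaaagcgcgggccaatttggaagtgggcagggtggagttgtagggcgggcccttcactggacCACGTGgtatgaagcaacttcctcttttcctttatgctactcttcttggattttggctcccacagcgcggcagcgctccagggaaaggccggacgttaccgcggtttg
Timm10, chr3:90314889-90315188, plus strand: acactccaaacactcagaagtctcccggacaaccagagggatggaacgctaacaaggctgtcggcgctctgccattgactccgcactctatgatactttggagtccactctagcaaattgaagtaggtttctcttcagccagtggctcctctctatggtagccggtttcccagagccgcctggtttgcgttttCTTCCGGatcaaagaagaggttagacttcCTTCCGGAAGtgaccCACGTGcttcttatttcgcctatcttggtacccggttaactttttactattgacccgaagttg
Timm9, chr6:95358846-95359145, minus strand: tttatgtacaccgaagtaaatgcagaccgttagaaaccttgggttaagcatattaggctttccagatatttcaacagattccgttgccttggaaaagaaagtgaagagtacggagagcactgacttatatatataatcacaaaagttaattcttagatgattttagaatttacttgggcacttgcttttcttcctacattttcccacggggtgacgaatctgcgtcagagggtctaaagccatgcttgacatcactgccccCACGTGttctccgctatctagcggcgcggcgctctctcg

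The E-box began 58 bases before the start site of Timm8a1 (position -58), at -13 in Timm10 and at 12 after the start of Timm9. It was found in 3 of 21 promoters of import genes and in 3 of 35 of carriers (14.3% and 8.57%), where 6.42% of all 33469 promoters held it. Among import genes it was in 3 of 13 promoters of those that fell and in 0 of 8 of those not called. Tomm40, Tomm6, Timm21 and Timm50 also fell by over 2-fold and held no E-box. Among carriers it was in 1 of 9 promoters of those that rose (Slc25a33) and in 0 of 5 of those that fell. A link between the E-box and the changes was not tested. Timm10 also held the ETS motif in 3 places, at -57, -28 and -25, of which the last 2 overlap on opposite strands. The ETS motif, read by GABP among other factors, was found in 7 of 21 import genes and 6 of 35 carrier promoters (33.3% and 17.1%), against 8.75% of all promoters. It did not follow the calls, being found in 3 of 13 promoters of import genes that fell and in 4 of 8 of those not called. The NRF1 core was found in 1 of 21 and 2 of 35, against 2.47% of all. A match describes the letters of the window and not a bound site.

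Of the TOM complex, the entry gate of the outer membrane, 4 of 8 genes fell (50%), with a median of -0.49. Over all genes 16.9% fell. Tomm40, the channel itself, read 11.00, 11.29 and 11.05 in A16 and 9.10, 9.68 and 9.45 in NA16. The states lay more than 1 log2 unit apart, and Tomm40 was 3.20-fold lower (log2 change -1.68, SE 0.17, adjusted p = 0.000417). Tomm6, a small subunit that steadies the complex, read 12.31, 12.16 and 12.65 in A16 and 11.20, 11.08 and 11.13 in NA16 (log2 change -1.20, SE 0.14, adjusted p = 0.000731). Tomm70, the receptor for carrier precursors, fell by 0.80 (adjusted p = 0.00488) and the small subunit Tomm5 by 0.59 (adjusted p = 0.0146) on the log2 scale.

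Of the receptors for presequences in the TOM complex none was called. Tomm20 read 13.23, 13.19 and 13.21 in A16 and 13.07, 12.91 and 13.02 in NA16. Its arrays did not overlap, but the change of -0.23 (SE 0.12, 95% interval -0.50 to 0.04) was not called (adjusted p = 0.177). Tomm22, the central receptor, read lower on every NA16 array and just missed the threshold (log2 change -0.40, adjusted p = 0.0559). Across the alternatives its change ran from -0.52, without replicate 1 of A16, to -0.27. Tomm7 and the second channel gene Tomm40l overlapped between the states and were not called, and their sign depended on the setting.

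In the TIM23 complex, which takes presequence proteins across the inner membrane, 4 of 5 genes fell (80%), with a median of -0.72. The share of all genes that fell was 16.9%. Timm21, which links the complex to TOM, read 10.14, 10.00 and 10.18 in A16 and 9.19, 8.84 and 8.94 in NA16 (log2 change -1.13, SE 0.13, adjusted p = 0.000722). The receptor Timm50 read 10.22, 10.39 and 10.46 in A16 and 9.25, 9.16 and 9.43 in NA16 (log2 change -1.12, SE 0.12, adjusted p = 0.000527). They were 2.19-fold and 2.17-fold lower with no overlap of the states. The channel subunits Timm17a and Timm17b fell by 0.72 (adjusted p = 0.0321) and 0.55 (adjusted p = 0.0103) on the log2 scale.

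Timm44, which holds the import motor to the channel, read 8.27, 8.18 and 8.30 in A16 and 8.19, 7.75 and 8.41 in NA16. The states overlapped and the change of -0.21 was not called (adjusted p = 0.47, 95% interval -0.65 to 0.24). Timm23, the other channel subunit, is no member, because its probe set is annotated to 3 symbols of near-identical genes that it may not tell apart. That probe set read 12.10, 12.08 and 12.18 in A16 and 11.28, 11.14 and 11.33 in NA16 (log2 change -0.89, adjusted p = 0.00295 in a fit over 31042 probe sets).

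Timm22, the channel that inserts carriers, fell by 0.48 on the log2 scale (adjusted p = 0.0122), while its second, dimmer probe set gave 0.11 and was not called (adjusted p = 0.694). The mean of both probe sets was not called either (-0.18, adjusted p = 0.274). Timm29, its metazoan partner, changed by -0.29 (adjusted p = 0.122). Tomm34, a cytosolic cochaperone that carries the name but is no part of the TOM complex, fell by 0.41 (adjusted p = 0.0367).

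Of the 14 import genes that fell, 9 stayed called in each of 17 alternative settings. The other 5 lost the call in at least 1. Timm17a and Tomm5 did so without replicate 1 of A16 (adjusted p = 0.161 and 0.0699) and without replicate 2 of NA16 (0.0703 and 0.0512), Timm17b without replicate 1 of NA16 (0.107), Timm22 without either NA16 replicate (0.0833 and 0.0922), and Tomm34 without replicate 1 of A16 (0.158) or either NA16 replicate (0.148 and 0.183).

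**Figure D2:**
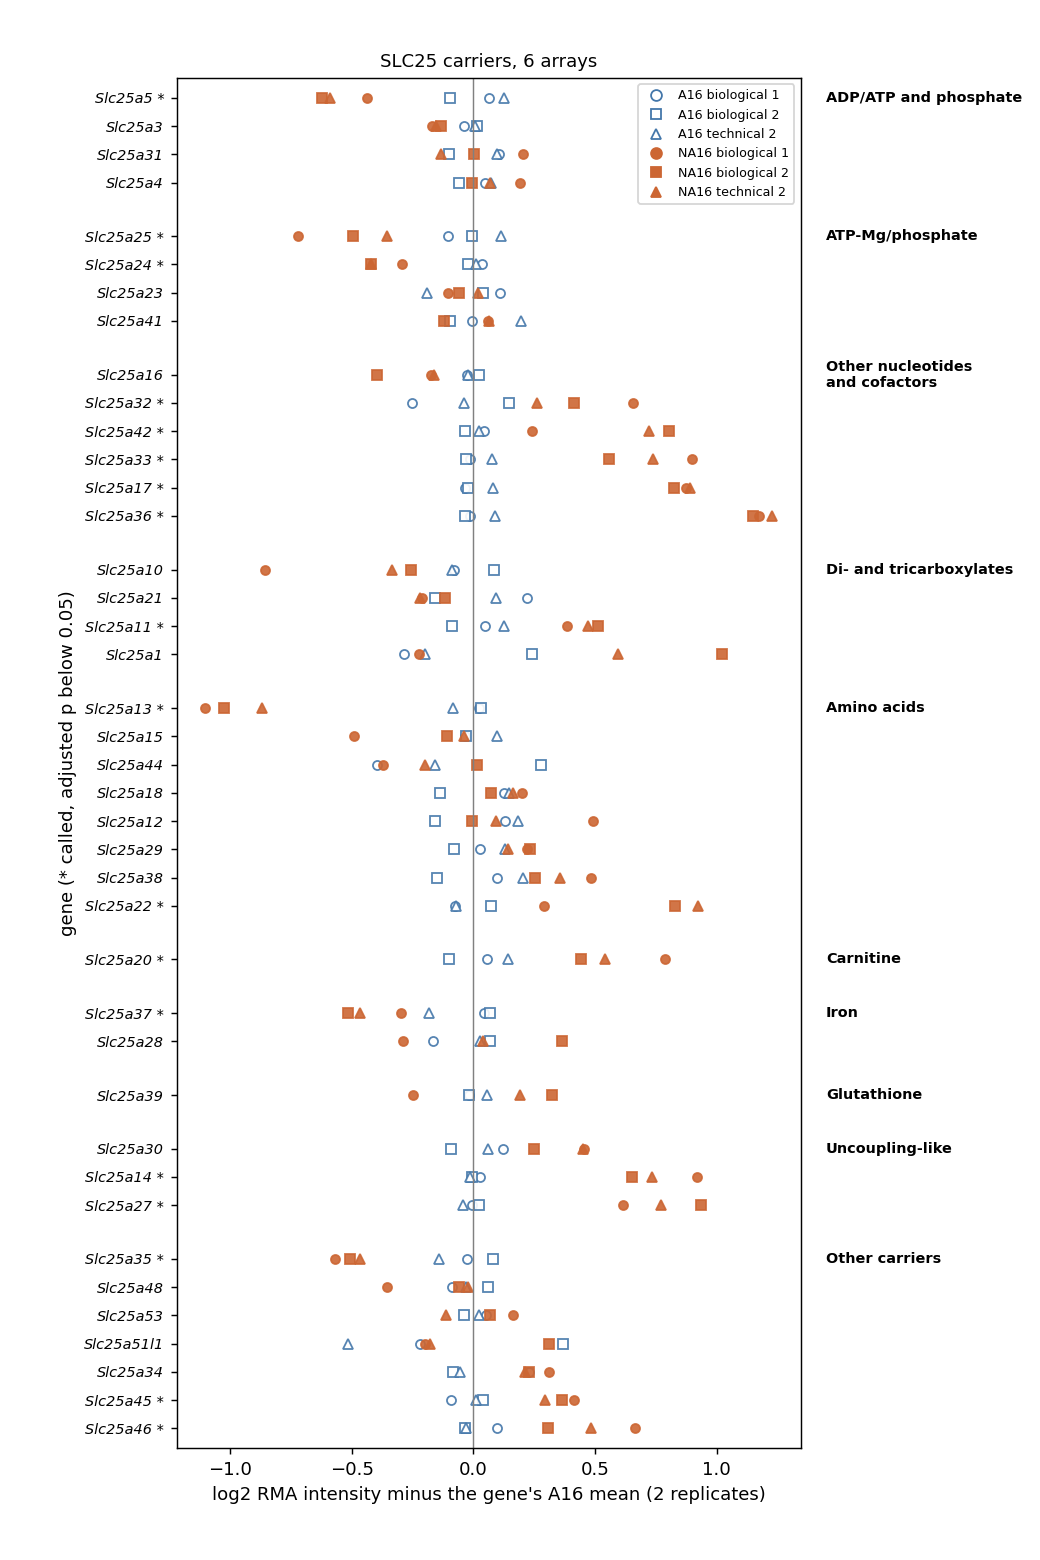
Log2 RMA intensity of each SLC25 carrier on the 6 arrays, minus the gene's A16 mean (horizontal axis), with genes on the vertical axis grouped by substrate, open blue symbols for A16, filled orange symbols for NA16, and asterisks for called genes. Carriers of nucleotides and cofactors and the uncoupling-like carriers lie mostly to the right of 0, Slc25a13 lies furthest to the left, and Slc25a1 is spread widely in NA16.

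Of the 6 carriers of nucleotides other than ADP and ATP and of cofactors, 5 rose (83.3%), with a median of 0.67. In this group 0 fell, also at an unadjusted limma p below 0.05. Over all genes 21.9% rose and 16.9% fell. Slc25a36, a pyrimidine nucleotide carrier, read 9.52, 9.50 and 9.62 in A16 and 10.71, 10.69 and 10.76 in NA16. This was the largest change among the carriers, 2.26-fold higher (log2 change 1.18, SE 0.11, adjusted p = 0.000317), and the arrays of each state lay within 0.2 log2 units of each other. The related pyrimidine carrier Slc25a33 read 8.71, 8.69 and 8.80 in A16 and 9.62, 9.28 and 9.46 in NA16 (log2 change 0.69, adjusted p = 0.00568).

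Slc25a17, the peroxisomal carrier of coenzyme A, FAD and NAD, read 10.35, 10.35 and 10.46 in A16 and 11.25, 11.20 and 11.27 in NA16. It was 1.81-fold higher (log2 change 0.85, SE 0.11, adjusted p = 0.00107), again with no overlap. Slc25a42, a mitochondrial coenzyme A carrier, rose by 0.64 (adjusted p = 0.0101) and Slc25a32, a carrier of folate or FAD, by 0.44 (adjusted p = 0.0411). The call of Slc25a32 was the weakest, since its probe set is dim, its other probe set gave -0.02, and it was lost without replicate 1 of A16 (adjusted p = 0.178) and without either NA16 replicate (0.156 and 0.104). Slc25a16 was the sixth of the group and was not called, with a change of -0.28 (adjusted p = 0.13).

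Promoters of Slc25a17 and of Slc25a13, the carrier that fell most, are shown as those with the largest change in each direction among carriers with an entry in the table.
Slc25a17, chr7:114767114-114767413, minus strand: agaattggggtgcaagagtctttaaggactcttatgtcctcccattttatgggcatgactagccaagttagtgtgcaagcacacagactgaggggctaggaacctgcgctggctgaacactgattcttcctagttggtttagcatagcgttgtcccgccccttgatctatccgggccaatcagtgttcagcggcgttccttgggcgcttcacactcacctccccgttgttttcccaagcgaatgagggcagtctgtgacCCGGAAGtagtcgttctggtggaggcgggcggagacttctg
Slc25a13, chr4:35328311-35328610, minus strand: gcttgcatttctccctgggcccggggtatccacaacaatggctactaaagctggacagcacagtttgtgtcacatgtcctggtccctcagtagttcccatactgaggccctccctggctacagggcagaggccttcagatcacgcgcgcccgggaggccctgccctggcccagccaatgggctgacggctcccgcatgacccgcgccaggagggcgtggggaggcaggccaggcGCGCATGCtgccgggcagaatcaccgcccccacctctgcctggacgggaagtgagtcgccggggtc

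Slc25a17 held 1 ETS motif, 10 bases after the start site, and Slc25a13 held 1 NRF1 core on the opposite strand, at -16. Of the carriers that rose, 3 of 9 promoters held the ETS motif, and of those that fell, 0 of 5.

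Uncoupling-like carriers, named for their resemblance to the uncoupling proteins, were higher on every NA16 array than on every A16 array in all 3 genes. Of all genes 27.8% showed that order. Slc25a27 read 6.71, 6.74 and 6.67 in A16 and 7.33, 7.65 and 7.48 in NA16 (log2 change 0.81, SE 0.13, adjusted p = 0.00245). Slc25a14 read 8.20, 8.17 and 8.16 in A16 and 9.09, 8.82 and 8.91 in NA16 (log2 change 0.74, SE 0.12, adjusted p = 0.00271). Slc25a30 gave 0.35 and was not called (adjusted p = 0.0786), but was called by PLIER (log2 change 0.47, adjusted p = 0.0352). Slc25a20, which brings acylcarnitines in for fatty acid oxidation, rose by 0.55 (adjusted p = 0.0162), a call lost without replicate 2 of A16 (adjusted p = 0.0866) and without replicate 1 of NA16 (0.118).

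Of the 4 carriers of ADP and ATP or phosphate 1 fell (25%), and of the 4 ATP-Mg/phosphate carriers 2 fell (50%). In both groups 0 rose, and the counts were the same at an unadjusted limma p below 0.05. Over all genes 16.9% fell and 21.9% rose. Slc25a5, the ADP/ATP translocase of dividing cells, read 13.53, 13.38 and 13.60 in A16 and 13.03, 12.85 and 12.88 in NA16. It fell by 0.57 on the log2 scale (SE 0.12, adjusted p = 0.0101) with no overlap, although the call was lost without replicate 1 of A16 (adjusted p = 0.0542) and without replicate 2 of NA16 (0.0605). Slc25a4, the translocase of heart and muscle, read 13.57, 13.46 and 13.59 in A16 and 13.71, 13.52 and 13.59 in NA16. It was not called, with a change of 0.06 and a 95% interval of -0.22 to 0.34, and with each array centred on its median the change was -0.02.

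Slc25a3, which supplies phosphate to ATP synthase, read 14.20, 14.25 and 14.24 in A16 and 14.07, 14.10 and 14.08 in NA16. All 3 NA16 arrays were lower, by little, and the change of -0.15 (95% interval -0.41 to 0.11) was not called (adjusted p = 0.37). Of the ATP-Mg/phosphate carriers, most of which respond to calcium, 2 of 4 fell. Slc25a25 read 8.30, 8.39 and 8.52 in A16 and 7.68, 7.91 and 8.05 in NA16 (log2 change -0.52, SE 0.11, adjusted p = 0.00899), and was not called without replicate 1 of NA16 (adjusted p = 0.0737).

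The other one, Slc25a24, read 12.02, 11.96 and 12.00 in A16 and 11.69, 11.56 and 11.56 in NA16 (log2 change -0.39, SE 0.11, adjusted p = 0.0294). Its states did not overlap, but leaving out any of the 4 replicates took the call away, with adjusted p from 0.0757 to 0.242, and so did PLIER (adjusted p = 0.0576).

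Amino acid carriers included the largest fall and 1 rise among 8 genes, with a median of 0.14. Slc25a13, the aspartate/glutamate carrier of the malate-aspartate shuttle that also serves the urea cycle in liver, read 10.10, 10.11 and 9.99 in A16 and 8.97, 9.05 and 9.21 in NA16. It was 2.01-fold lower (SE 0.11 on the log2 scale, adjusted p = 0.00057), and its other probe set took the mean of both to -0.93. Its close relative Slc25a12 read 10.08, 9.79 and 10.13 in A16 and 10.44, 9.94 and 10.04 in NA16. These overlapped, and the change of 0.14 (95% interval -0.24 to 0.52) was not called (adjusted p = 0.575).

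The glutamate carrier Slc25a22 read 9.81, 9.96 and 9.81 in A16 and 10.18, 10.71 and 10.81 in NA16 (log2 change 0.72, SE 0.13, adjusted p = 0.00458). All NA16 arrays were higher, the first one less so than the others, and the call was lost with the technical arrays left out (0.56, adjusted p = 0.0922). It was also lost with the technical array averaged with biological replicate 2 (0.62, adjusted p = 0.0606).

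Of the di- and tricarboxylate carriers Slc25a11, the oxoglutarate carrier and the other carrier of the malate-aspartate shuttle, rose by 0.47 (adjusted p = 0.0195), a call lost without replicate 2 of A16 (adjusted p = 0.0948) and without either NA16 replicate (0.0603 and 0.134). Slc25a1, which exports citrate for lipid synthesis, read 10.29, 10.82 and 10.38 in A16 and 10.35, 11.60 and 11.17 in NA16. One NA16 array sat at the A16 level while the others lay above it, and the change of 0.61 (SE 0.28) was not called (adjusted p = 0.149). Without replicate 1 of NA16, and so without its technical array, 1 NA16 array was left and the change was 1.02. Without replicate 2 of NA16 it was 0.19. Slc25a10, the dicarboxylate carrier, was lower on every NA16 array without a call (log2 change -0.43, adjusted p = 0.0626). Across the alternatives its change ran from -0.59, without replicate 2 of NA16, to -0.23, with all probe sets averaged.

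Slc25a37, mitoferrin 1, which brings iron to heme synthesis, read 8.78, 8.80 and 8.55 in A16 and 8.44, 8.22 and 8.27 in NA16 (log2 change -0.45, SE 0.12, adjusted p = 0.0234). Its states did not overlap, and the call was lost without replicate 2 of A16 (adjusted p = 0.108) and without either NA16 replicate (0.06 and 0.198). The second mitoferrin gene, Slc25a28, overlapped between the states. Slc25a35, whose substrate is not settled, read 5.96, 6.07 and 5.85 in A16 and 5.42, 5.48 and 5.52 in NA16 (log2 change -0.51, SE 0.12, adjusted p = 0.0126). It is dim on the array, was not called by PLIER (-0.32, adjusted p = 0.123), and lost the call without replicate 2 of A16 (0.0655) or either NA16 replicate (0.0657 and 0.0589).

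Slc25a46, an outer membrane protein of mitochondrial shape, rose by 0.44 (adjusted p = 0.0357) and the dim Slc25a45 by 0.36 (adjusted p = 0.0399). Slc25a46 lost its call without either A16 replicate (adjusted p = 0.0875 and 0.136) or replicate 1 of NA16 (0.344), and Slc25a45 without any 1 of the 4 replicates (0.08 to 0.251). Of the 18 carriers called, 6 (Slc25a13, Slc25a14, Slc25a17, Slc25a27, Slc25a33 and Slc25a36) stayed called in all of the 17 alternatives, and 12 did not. The call of Slc25a42 among them was lost without replicate 2 of A16 or of NA16. It was also lost with the technical array averaged with biological replicate 2 (adjusted p = 0.0992) or left out (0.118). The 15 uncalled carriers whose values are not given above, among them Slc25a15, Slc25a29, Slc25a38 and Slc25a39, had log2 changes between -0.19 and 0.34. PLIER called Slc25a29, a carrier of basic amino acids, higher (log2 change 0.60, adjusted p = 0.0112), where RMA gave 0.21 (adjusted p = 0.231).

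**Figure D3:**
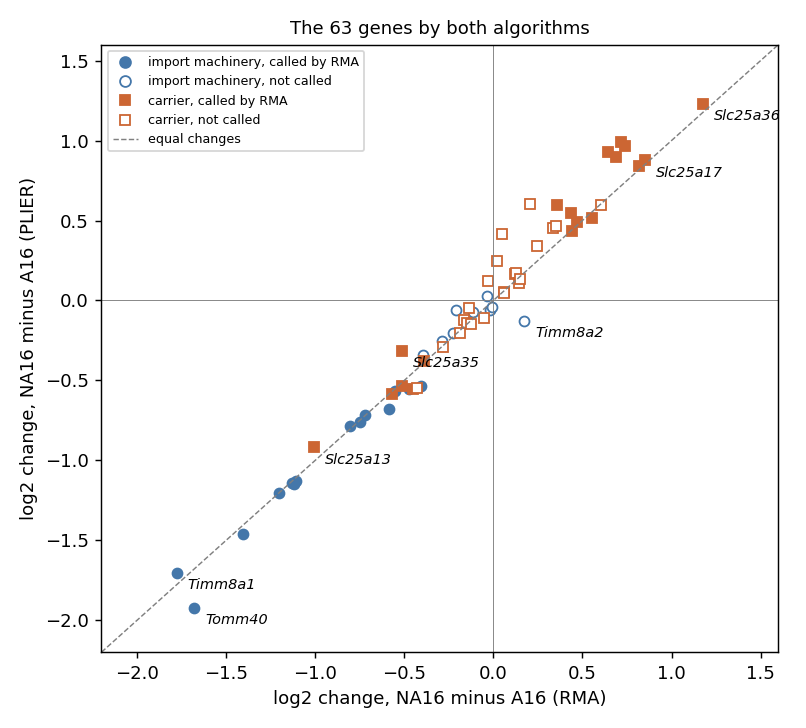
Log2 change of the 63 genes by RMA (horizontal axis) against PLIER (vertical axis), NA16 minus A16, with circles for the import machinery, squares for the carriers and filled symbols for genes called by RMA. The points follow the dashed line of equal changes, with Tomm40 lower by PLIER (-1.92) than by RMA (-1.68) and with most carriers that rose placed a little above the line.

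Several genes were measured by more than 1 probe set, 9 of the import machinery and 12 of the carriers. For 0 of the 21 did 1 probe set pass the threshold upwards and another downwards, and for 5 (Slc25a23, Slc25a32, Slc25a39, Slc25a48 and Timm22) the log2 changes had both signs.

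Other genes of protein import, listed by role, were split, with 9 of 39 higher (23.1%), 12 lower (30.8%) and a median of -0.05. Of all genes 21.9% were higher and 16.9% lower. Cytosolic helpers that keep precursors unfolded were lower in 2 of 3. Stip1, the link between Hsp70 and Hsp90, read 12.44, 12.45 and 12.39 in A16 and 11.04, 11.20 and 11.22 in NA16 (log2 change -1.27, adjusted p = 0.000237). Dnaja1, an Hsp40, read 12.59, 12.56 and 12.49 in A16 and 11.51, 11.24 and 11.35 in NA16 (log2 change -1.21, adjusted p = 0.000385). Of the genes for outer membrane insertion and membrane contact 3 of 8 fell and 0 rose (1, Apool, at an unadjusted limma p below 0.05).

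The contact site protein Immt of the cristae fell from 12.31, 12.28 and 12.26 to 11.08, 11.32 and 11.19 (log2 change -1.05, adjusted p = 0.000644). Matrix chaperones were split. The folding pair Hspd1 and Hspe1 fell by 0.61 (adjusted p = 0.00429) and 0.98 (adjusted p = 0.000632). Hspa9, the motor that pulls precursors in, instead rose by 0.65 (adjusted p = 0.0134). That call was lost without either A16 replicate or replicate 1 of NA16. It was also lost with all probe sets averaged (log2 change 0.48, adjusted p = 0.0586).

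Peptidases and proteases rose in 6 of 12 genes (50%), with 2 lower (16.7%) and a median of 0.35. The falls reached a log2 change of -1.05. The shares of all genes were 21.9% higher and 16.9% lower. Lonp1, the matrix protease that removes damaged proteins, read 11.24, 11.66 and 11.35 in A16 and 12.11, 12.89 and 12.78 in NA16 (log2 change 1.19, SE 0.19, adjusted p = 0.00271). Its states did not overlap, and the mean over its 2 probe sets was 0.69. Mipep, which trims imported proteins, rose by 0.75 (adjusted p = 0.00389) and Oma1, a stress-activated protease of the inner membrane, by 0.65 (adjusted p = 0.00535). The insertase Oxa1l, listed with the intermembrane space genes, rose by 0.73 (adjusted p = 0.00283). In that list 1 of 8 genes rose and 2 fell, with a lowest log2 change of -0.65.

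Transporters of the mitochondrial membranes outside the SLC25 rule went both ways, with 6 of 22 higher, 6 lower and a median of 0.05. These were shares of 27.3% in each direction, where 21.9% of all genes were higher and 16.9% lower. The calcium uniporter genes parted. Mcub, the subunit that restrains the uniporter, read 8.03, 7.92 and 8.24 in A16 and 10.67, 10.00 and 10.40 in NA16, 4.74-fold higher (log2 change 2.24, SE 0.19, adjusted p = 0.000213). The pore gene Mcu fell by 0.69 (adjusted p = 0.0157), a call lost without replicate 2 of A16 or replicate 1 of NA16. With all probe sets averaged Mcu changed by -0.49 and was not called (adjusted p = 0.0645). The regulator gene Micu2 rose by 1.03 (adjusted p = 0.000736). It stayed called in every alternative, with changes down to 0.51 and an adjusted p of 0.0105 with all probe sets averaged.

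Letm1, an inner membrane cation exchanger, read 10.40, 10.34 and 10.54 in A16 and 8.91, 8.40 and 8.42 in NA16 (log2 change -1.87, SE 0.13, adjusted p = 0.000118). Tspo, an outer membrane protein that binds cholesterol, read 11.97, 11.71 and 12.25 in A16 and 13.28, 13.18 and 13.18 in NA16 (log2 change 1.29, adjusted p = 0.000799). Sfxn4, a sideroflexin, read 7.76, 7.72 and 7.90 in A16 and 8.87, 8.84 and 8.80 in NA16 (log2 change 1.06, adjusted p = 0.000504). In none of these 3 genes did the states overlap.

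Regulators of mitochondrial biogenesis were lower in 6 of 18 (33.3%) and higher in 2 (11.1%), with a median of -0.25. Over all genes 16.9% were lower and 21.9% higher. Pprc1, a coactivator of the PGC-1 family that responds to serum, read 10.25, 10.12 and 10.27 in A16 and 8.18, 7.72 and 7.75 in NA16, 5.10-fold lower (log2 change -2.35, SE 0.13, adjusted p = 6.86e-05). Nrf1, a factor that binds promoters of respiratory genes, read 9.25, 9.39 and 9.40 in A16 and 8.00, 7.99 and 8.25 in NA16 (log2 change -1.30, adjusted p = 0.000257), with a mean over its 3 probe sets of -0.58. Gabpb1, a subunit of the ETS factor GABP, changed from 9.89, 9.90 and 9.67 to 8.69, 8.89 and 8.74 (log2 change -1.03, adjusted p = 0.000762).

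Tfb1m, a methyltransferase of the mitochondrial ribosome, changed from 9.62, 9.61 and 9.81 to 8.85, 8.63 and 8.69 (log2 change -0.96, adjusted p = 0.000898). Myc, which binds the E-box, fell by 0.56 (adjusted p = 0.00688), a call lost without replicate 2 of NA16 (adjusted p = 0.0516). The other PGC-1 coactivator Ppargc1b and the nuclear receptor Esrra were the genes of the list that rose, by 0.66 (adjusted p = 0.00348) and 0.54 (adjusted p = 0.0118), and the second call was lost without replicate 2 of either state (highest adjusted p = 0.126). Tfam, which packages mitochondrial DNA, was not called (log2 change -0.16, adjusted p = 0.338).

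Set beside like families, the import machinery had the lowest median and the highest share of falls among the 4 families described here. Of 73 genes of the mitochondrial ribosome 30 fell and 6 rose (41.1% and 8.22%, median -0.34). Of 86 genes of the respiratory chain and ATP synthase, assembly factors included, 26 fell and 2 rose (30.2% and 2.33%, median -0.20). Of 48 genes of the cytosolic ribosome, which translates nuclear transcripts, 3 fell and 2 rose (median 0.05). The falls were Rpl7l1, Rps27l and Rps13 (A16 means 11.74, 9.10 and 7.87). The rises were Rpl26l1 and Rpl37-ps2, a pseudogene symbol (A16 means 7.34 and 7.00). This list was bright, with a median A16 value of 14.24 against 8.69 for all genes, and its called genes all lay below that median. Whether brightness limited its changes was not tested. These families are described by their counts, and no test of the difference between them was run.

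**Figure D4:**
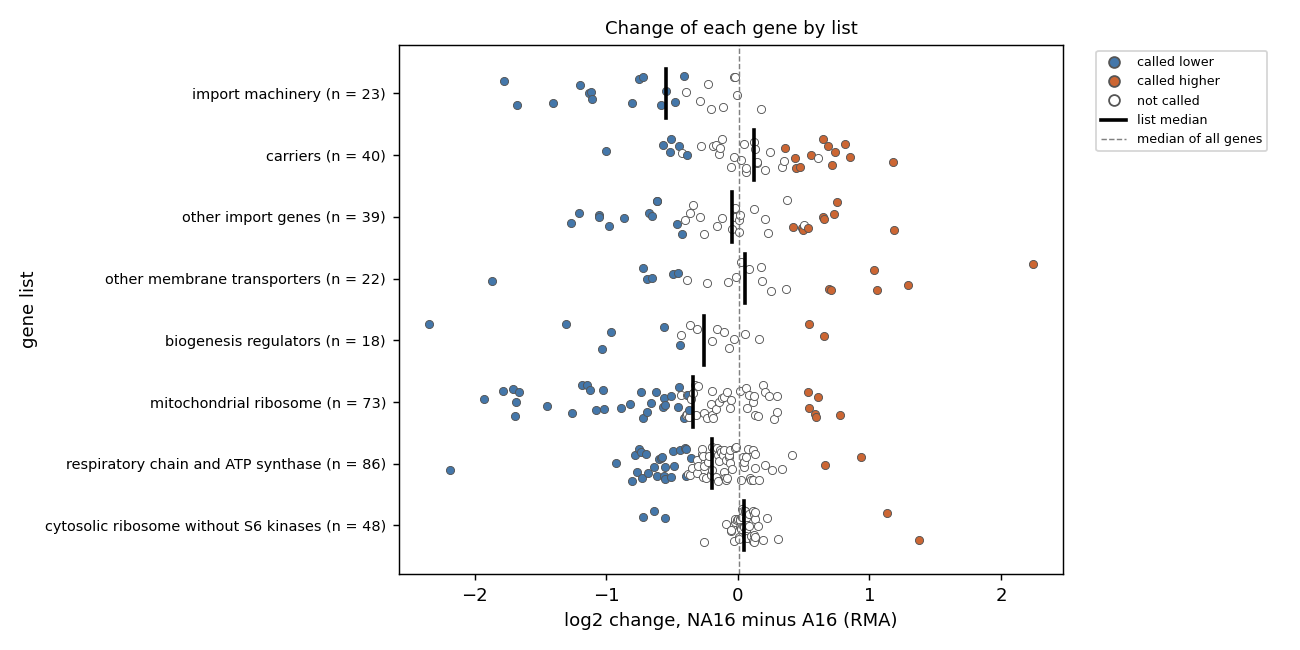
Log2 change (NA16 minus A16, horizontal axis) of every gene in 8 lists (vertical axis, with the number of genes), blue for called lower, orange for called higher and white for not called, with list medians as black bars and the median of all genes dashed. The bar of the import machinery (-0.55) lies furthest to the left, and that of the carriers (0.12) furthest to the right.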

How the data were processed

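Biotin-labelled RNA of A16 and NA16 cells was hybridised to Affymetrix rat arrays. The authors normalized each array with RMA and with PLIER (versions not given in the sources used here) and deposited linear intensities, of which log2 was taken here. The 12 deposited columns come from 6 arrays. Every RMA intensity lay above 16, which would understate changes of dim genes. Labels number biological replicate 1 also as technical replicate 1, so technical replicate 2 was averaged with it. The labels and the methods call replicates 1 and 2 biological without saying how they were grown, so nothing beyond the spread of these few arrays stands behind the p-values, and their number limits the precision. Array medians were 152.5 to 157.9.

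Of 31042 probe sets that were not controls, 20826 carried 1 symbol by the platform annotation (20758 matched to RefSeq through Entrez identifiers, with 0 symbols changed). Each of 14217 genes was represented by its brightest probe set (mean log2 RMA over the 6 arrays). States were compared by limma 3.58.1 in R 4.3.3 (2 residual and 4.78 prior degrees of freedom) with Benjamini-Hochberg adjustment over all genes, a fit tested on simulated data. PLIER values and 16 other settings were tried as alternatives, beside the methods' t-test.

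The genes and lists were chosen with earlier results of these data known. Arrays are given in full for the 6 largest falls and 6 largest rises of each class among called genes without overlap, for genes named whatever they did, such as Tomm20, Timm44 and Slc25a1, and for up to 4 called genes of each other list. Other named genes were added after their values were seen. The counts cover the 39 other import genes, 22 transporters and 18 regulators analysed here. The ribosome count leaves out 7 S6 kinases that share its name pattern. Protein sequences were not analysed here. Promoters came from RefSeq (GRCr8), and no build is named for the arrays.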

Additional observations from a re-analysis of the deposited data

How the results depend on the processing

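The 14 falls and 0 rises of the import machinery stayed between 10 and 15 falls with 0 rises under every alternative limma fit, and their median stayed between -0.63 and -0.48. Between 18 and 22 of these genes lay below 0. The methods' t-test at 2 against 2 called 11 falls unadjusted and 0 after Benjamini-Hochberg adjustment, where 20 genes in all passed. Among the carriers it called 8 rises and 7 falls unadjusted and 0 of either after adjustment. The 12 carrier rises became 6 with the technical arrays left out and 7 with the technical array averaged with the biological array it correlated with best, an alternative chosen after seeing the data. Leaving out 1 replicate gave 7 to 9 carrier rises and 2 to 4 falls, 7 of the rises without replicate 2 of A16. The 2 falls came without replicate 1 of NA16, and 3 were left without replicate 2 of NA16 or of A16. Leave-one-out medians of the carriers ran from 0.10 to 0.15. The median of 0.12 moved by more than the replicates' spread to 0.17 with PLIER, 0.0418 with arrays centred on their median, 0.0919 with every array as its own replicate, 0.0914 with all probe sets averaged, 0.083 with the technical array averaged with biological replicate 2, 0.0906 with its best correlate, 0.0952 without replicate 2 of NA16 and 0.0924 without the NA16 array of biological replicate 1 (also chosen after seeing the data).

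Of the 31 genes that were not called, 16 changed sign in at least 1 alternative. Among these, Timm10b ran from -0.38 with all probe sets averaged, where it was called (adjusted p = 0.0431), to 0.16, Slc25a51l1 from -0.31 to 0.43 and Slc25a44 from -0.41 to 0.14. Timm44 gave 0.0678 without replicate 2 of NA16. Slc25a4 gave -0.0203 with centred arrays and -0.0046 (without replicate 1 of NA16) to 0.1285 with 1 replicate left out. Slc25a12 gave -0.0138 (without replicate 2 of A16), -0.0063 (without replicate 1 of NA16) and up to 0.3 with 1 replicate left out. No called gene of the 63 changed sign.

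With the replicate block the import machinery had 15 falls and 0 rises, the carriers 15 rises and 7 falls, and all genes 3908 rises and 3111 falls. Deviations of same-numbered replicates correlated at 0.56, but with 2 pairs and no label that ties them the numbers were not taken to pair the samples. Technical replicate 2 correlated at 0.998 with biological replicate 1 and 0.993 with biological replicate 2 in A16, and at 0.992 and 0.997 in NA16, so which array it repeats in NA16 is unsure.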
